A study of Mus musculus with 5 samples.

Results

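The EGR and NR4A transcription factors and their NAB corepressors were followed in mouse olfactory sensory neurons (OSNs) that transcribe the odorant receptor gene Olfr151 (also called M71), with and without exposure to an odorant that activates this receptor. The 9 genes were chosen by family: Egr1, Egr2, Egr3 and Egr4, Nr4a1, Nr4a2 and Nr4a3, and Nab1 and Nab2. All 9 were found among the 55411 genes of the count tables. Every mouse, controls included, was 7 weeks old, male and homozygous for Olfr151tm26Mom, a knock-in allele in which cells that transcribe Olfr151 also make GFP from the same transcript. Exposed mice spent 5 h with 5% acetophenone in DMSO, and control mice spent 5 h with DMSO alone. GFP-positive live cells of the main olfactory epithelium were sorted, and the cells of 4 mice were pooled for each library, so that 3 control pools (1, 2 and 3) and 2 exposed pools (1 and 3) are compared, and single mice cannot be followed. The labels give 200 cells per pool in one field and 400 in another, and the paper's methods give 200 per pool for Olfr151 mice. The gate selects cells by GFP, and transcripts of other cell types that came through it would count in the same library.

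EGR1 to EGR4 are zinc finger transcription factors that bind GC-rich sites in promoters, and Egr genes are switched on within minutes of a stimulus through serum response factor and its ETS partners. NR4A1 (Nur77), NR4A2 (Nurr1) and NR4A3 (Nor1) are orphan nuclear receptors that act without a classical ligand, and their genes are induced by cAMP through CREB and by calcium through MEF2 factors. NAB1 and NAB2 bind EGR proteins and repress their targets, and Nab2 is itself induced by EGR factors, which makes a feedback loop. In an OSN an odorant raises cAMP and then calcium, the signals to which these genes respond in other neurons.

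The libraries held 43534590, 49527380 and 45139127 counts in the controls (pools 1 to 3) and 43683076 and 42780403 counts in exposed pools 1 and 3. Olfr151 was at 3244, 3071 and 3633 CPM in the control libraries and at 2446 and 2351 CPM in the exposed ones, where CPM is the count per 1000000 counts on tested genes after trimmed mean of M values (TMM) scaling. Both exposed libraries were thus below the control libraries, and the difference of −0.47 on the log2 scale was not called by edgeR (adjusted p = 0.101). DESeq2 gave −0.42 (adjusted p = 0.0217) and did not call it either. Neither change was beyond the 0.5 that a call requires. Omp, the marker of mature OSNs, had between 517814 and 774399 counts in every library. The labelled cell type was therefore present by its defining marker. The log2 CPM of 2 libraries of 1 condition correlated across genes at 0.870 to 0.924, and those of different conditions at 0.767 to 0.874.

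A gene was tested when it had 140 counts or more in all libraries of 1 condition or both, and was called when its Benjamini-Hochberg adjusted p-value was under 0.1 and its log2 fold change beyond 0.5 in edgeR's quasi-likelihood test. Of the 9 genes, 6 passed the filter (Egr1, Egr4, Nr4a1, Nr4a2, Nr4a3 and Nab1). Nr4a1 and Egr1 were called upregulated, and none was called downregulated by edgeR (0 at an unadjusted p under 0.05) or by DESeq2. Over all 10054 genes tested, edgeR called 3.42% up and 1.85% down, and DESeq2 called 671 genes up and 715 down. Egr4, Nr4a2, Nr4a3 and Nab1 passed the filter only through their exposed libraries, as did 6.47% of all genes tested. In 6 of the 9 genes both exposed libraries were above all 3 control libraries (Egr1, Egr4, Nr4a1, Nr4a2, Nr4a3 and Nab2), in none were both below, and in 3 the conditions overlapped (Egr2, Egr3 and Nab1). Nab2, Egr2 and Egr3 were not tested. Among all genes tested, 20.3% had both exposed libraries above and 19.6% both below. The filter itself favours higher exposed libraries in genes that passed only through them, here Egr4, Nr4a2 and Nr4a3 among those above, so the counts are descriptions and no support. As each library is a bulk sample of sorted cells, a change in the number of cells of a type and a change in RNA per cell cannot be told apart.

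To show the motifs through which CREB and EGR factors act, the 250 bases before the RefSeq starts of the NR4A genes and of Nab1 (assembly GRCm38.p6) are printed here, 5′ to 3′ on the strand of the gene. Capitals mark matches, on either strand, to TGACG, the core of the cAMP response element (CGTCA when read on the other strand), and to the EGR sites GCGTGGGCG and GCGGGGGCG (CGCCCACGC and CGCCCCCGC on the other strand). The Nr4a1 window is chr15:101266596-101266845 on the plus strand, inside the annotated gene (chromosome 15, 101254269 to 101274795), before an internal start. The Nr4a2 window is chr2:57124004-57124253 on the minus strand, just before the annotated gene (chromosome 2, 57106830 to 57124003). The Nr4a3 window, chr4:48045055-48045304 on the plus strand, overlaps the annotated start of its gene (chromosome 4, 48045153 to 48086447). The Nab1 window, chr1:52500449-52500698 on the minus strand, likewise overlaps the start of its gene (chromosome 1, 52457294 to 52500679).
Nr4a1: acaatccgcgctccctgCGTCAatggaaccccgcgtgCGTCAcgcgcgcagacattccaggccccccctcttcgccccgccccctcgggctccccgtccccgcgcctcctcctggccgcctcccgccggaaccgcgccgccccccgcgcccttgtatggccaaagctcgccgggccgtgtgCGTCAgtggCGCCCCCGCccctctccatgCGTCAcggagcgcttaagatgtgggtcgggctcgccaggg
Nr4a2: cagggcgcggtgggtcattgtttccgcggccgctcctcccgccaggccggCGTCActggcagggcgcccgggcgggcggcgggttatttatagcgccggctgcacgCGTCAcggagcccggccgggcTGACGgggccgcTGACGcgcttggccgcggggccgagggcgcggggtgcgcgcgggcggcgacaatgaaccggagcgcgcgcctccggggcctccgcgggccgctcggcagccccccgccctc
Nr4a3: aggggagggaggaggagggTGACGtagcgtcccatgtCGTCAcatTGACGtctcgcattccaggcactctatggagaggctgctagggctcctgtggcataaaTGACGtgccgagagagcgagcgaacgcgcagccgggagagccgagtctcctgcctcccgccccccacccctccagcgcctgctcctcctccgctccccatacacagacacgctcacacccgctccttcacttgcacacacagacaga
Nab1: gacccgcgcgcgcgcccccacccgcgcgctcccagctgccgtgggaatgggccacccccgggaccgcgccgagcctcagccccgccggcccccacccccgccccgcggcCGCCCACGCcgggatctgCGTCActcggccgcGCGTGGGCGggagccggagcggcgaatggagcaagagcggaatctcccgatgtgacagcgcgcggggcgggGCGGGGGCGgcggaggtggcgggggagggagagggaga

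TGACG occurred 4 times in each of the Nr4a1, Nr4a2 and Nr4a3 windows. Of 32851 windows of the same length in the table, 17.8% held at least 1 match and 0.137% held at least 4. The palindrome TGACGTCA, which contains TGACG on both strands, occurred in 1.55% of all windows and in no window of the 7 member genes searched. The Egr4 window held 2 TGACG matches, the windows of 3 RefSeq starts of Egr2 shared the same 2 matches, the Nab1 window had 1 and the Nab2 window 0. GCGTGGGCG matched the Nab1 window 2 times and no other member window searched, against 0.536% of all windows. GCGGGGGCG matched the Nab1 and Nr4a1 windows, against 2.57% of all windows. The CArG box bound by serum response factor, found in 1.47% of all windows, was present before 4 of the 5 RefSeq starts of Egr2 at 2 distinct sites, 1 of which was shared by 3 overlapping windows. AAAGGTCA, the site bound by an NR4A monomer, was in none of their windows and in 1.34% of all windows. No window of Egr1 or Egr3 was searched, so nothing is said of their promoters. These are matches of letters in a short window and show no binding.

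**Figure D1:**
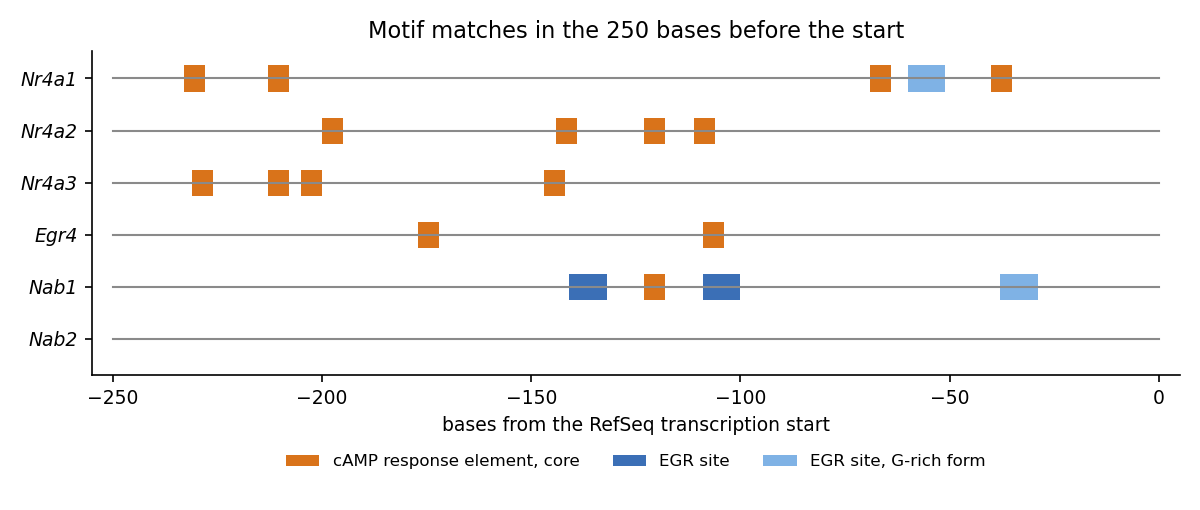
Positions of motif matches in the 250 bases before the RefSeq start of 6 member genes (x axis, bases from the start). Orange boxes are matches to the core of the cAMP response element, dark blue boxes matches to the EGR site and light blue boxes matches to its G-rich form; each Nr4a gene has 4 orange boxes, and Nab1 alone has dark blue ones.

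Nr4a1, an early response receptor of activated neurons and lymphocytes, was at 70.6, 61.8 and 93.8 CPM in the controls (pools 1 to 3) and at 1794 and 1322 CPM in exposed pools 1 and 3. The lower exposed library was 14.1 times the highest control library, so that the conditions were far apart. The mean rose from 75.4 ± 16.5 CPM (SD, n = 3) to 1558 ± 334 CPM (SD, n = 2), a fold of 20.7. On the log2 scale the change was 4.37 (SE 0.23, 95% interval 3.82 to 4.92, adjusted p = 0.000963), with 43 of the 10054 genes tested showing a larger increase. By adjusted p-value it ranked 3 among all genes tested. It was called when any single library was left out, with log2 fold changes of 4.13 to 4.57.

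Nr4a2, best known for its part in the making of dopamine neurons, had 51, 2 and 1533 counts in the controls (pools 1 to 3) and 7400 and 7669 counts in exposed pools 1 and 3. The exposed pools were nearly equal, while control pool 3 was far above the other controls. In CPM the means were 11.6 ± 19.0 (SD, n = 3) and 180 ± 7.78 (SD, n = 2), and the lower exposed library was 5.20 times the highest control library. The log2 fold change of 3.96 (SE 1.83, 95% interval −0.49 to 8.41) was not called (adjusted p = 0.308). Without control pool 3, the highest control, it was 8.23 and was called (adjusted p = 0.0121). That fit leaves controls of 51 and 2 counts for a gene that passed the filter through its exposed libraries, and nothing is drawn from it.

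Nr4a3 had 293, 0 and 222 counts in the control pools and 680 and 1670 counts in the exposed pools. Both exposed libraries were above the controls, by 2.35 times for the closest pair, and they differed from each other as well. Its mean went from 3.88 ± 3.50 CPM (SD, n = 3) to 28.2 ± 17.2 CPM (SD, n = 2), with a log2 fold change of 2.86 (SE 1.57, 95% interval −0.94 to 6.66, adjusted p = 0.377) that was not called. When libraries were scaled by the ERCC spike-in RNAs in place of TMM, the log2 fold change was 3.20 and was called (adjusted p = 0.0359). This was the only call of Nr4a3 in the 15 alternatives, which include leaving out each library. Its log2 fold change then ranged from 2.04 (without exposed pool 3) to 3.54 (without control pool 1).

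**Figure D2:**
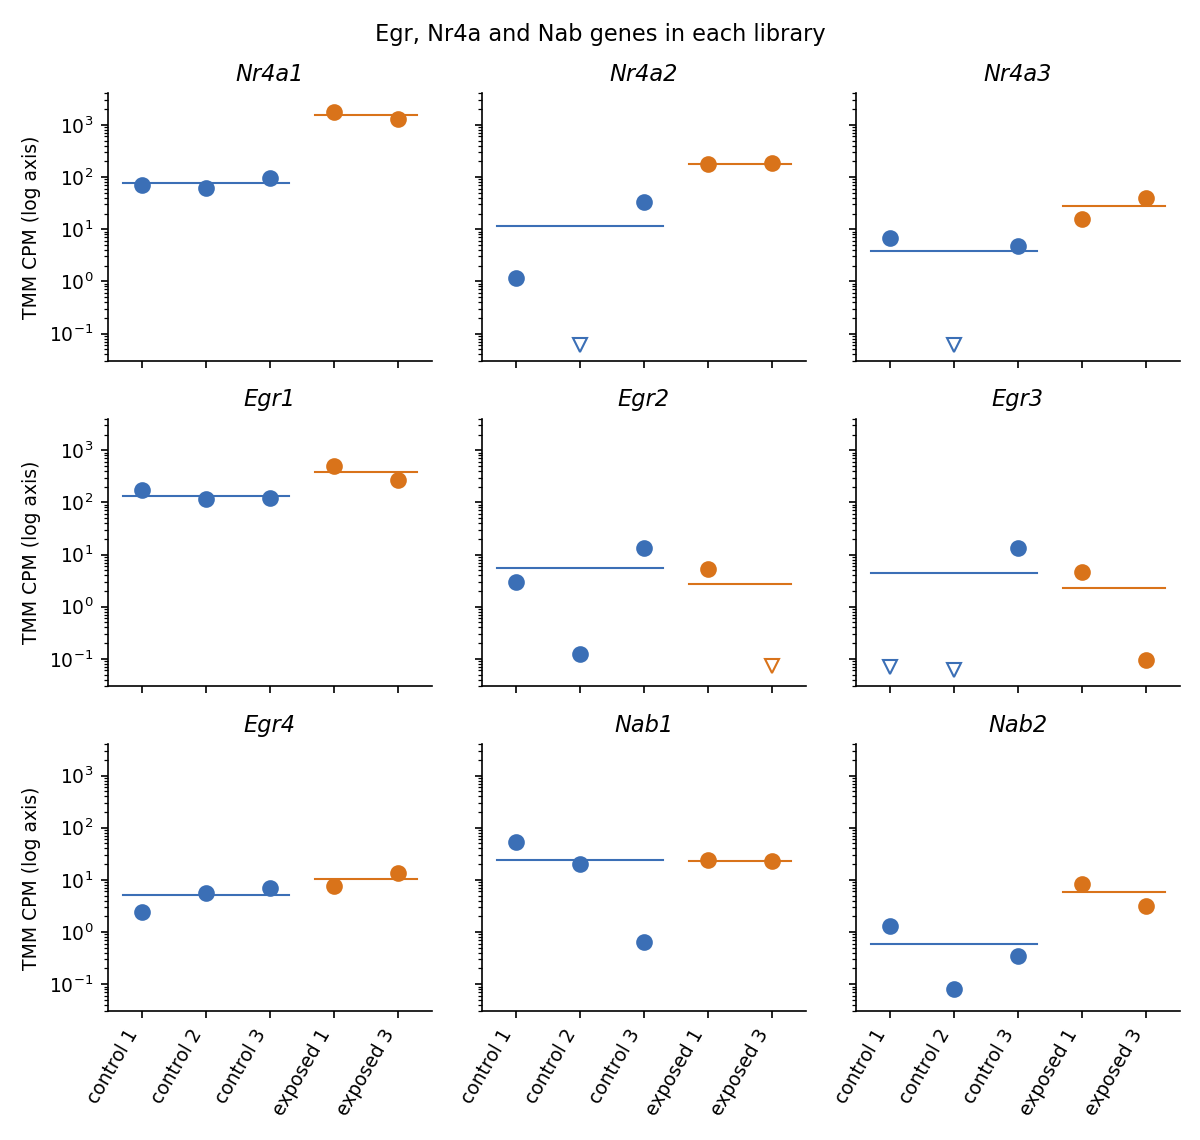
TMM-scaled CPM (log axis) of the 9 genes in each library, with control pools in blue and exposed pools in orange. Horizontal lines are the means of the conditions, and open triangles mark libraries with at most 3 counts, drawn at the level of 3 counts (0.0613 to 0.0725 CPM). Nr4a1, Nr4a2, Nr4a3, Egr1, Egr4 and Nab2 show both exposed points above all control points.

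Egr1, the EGR factor most widely used as a marker of neuronal activity, was at 172, 114 and 119 CPM in the controls (pools 1 to 3) and at 489 and 267 CPM in exposed pools 1 and 3. It was thus well expressed in the control libraries, and the lower exposed library was 1.56 times the highest control library. The means were 135 ± 32.2 CPM (SD, n = 3) and 378 ± 156 CPM (SD, n = 2), a fold of 2.80, and the log2 fold change of 1.49 (SE 0.30, 95% interval 0.77 to 2.20) was called (adjusted p = 0.0578). This call was less steady than that of Nr4a1: without exposed pool 1 the log2 fold change was 0.99 (adjusted p = 0.322), and without control pool 2 it was 1.38 (adjusted p = 0.186), neither of which was called.

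Egr4 (chromosome 6, 85511121 to 85513589, minus strand) had 106, 273 and 326 counts in the control pools and 318 and 562 counts in the exposed pools. After scaling the libraries only just separated, at 7.12 CPM in control pool 3 and 7.49 CPM in exposed pool 1. The log2 fold change of 1.06 (SE 0.59, 95% interval −0.34 to 2.45, adjusted p = 0.377) was not called.

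Egr2 (chromosome 10, 67535475 to 67542188, plus strand), known for its role in myelinating glia and the hindbrain, had 131, 6 and 610 counts in the control pools and 227 and 0 counts in the exposed pools. Egr3 (chromosome 14, 70077203 to 70082614, plus strand) had 3, 0 and 608 counts in the control pools and 194 and 4 in the exposed pools. Both genes were highest in control pool 3 and next highest in exposed pool 1, and their conditions overlapped. Neither passed the filter, and a two-sided exact permutation test of CPM gave p = 0.8 for Egr2 and p = 1 for Egr3 (n = 3 and 2), where 0.2 is the smallest p that this two-sided test can give.

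Nab1 had 2251, 981 and 29 counts in the controls (pools 1 to 3) and 1020 and 934 counts in exposed pools 1 and 3. The exposed libraries lay within the range of the controls, which reached from 0.634 to 52.3 CPM. Its log2 fold change was −0.06, and the 95% interval from −3.26 to 3.13 (adjusted p = 0.986) is wide enough to hold a large change in either direction. Without control pool 1 the sign turned, and the log2 fold change of 1.17 was not called (adjusted p = 0.706).

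Nab2 (chromosome 10, 127660918 to 127668568, minus strand) had 56, 4 and 16 counts in the control pools and 357 and 130 counts in the exposed pools, so exposed pool 3 fell just short of the filter. Its CPM were 1.30, 0.0818 and 0.350 in control and 8.41 and 3.14 in exposed libraries, and the exposed libraries were higher by 2.42 times for the closest pair. The two-sided exact permutation test gave p = 0.2 (n = 3 and 2), the smallest it can give. With at least 10 counts as the filter the log2 fold change was 3.33 (adjusted p = 0.267), not called. Nab2 passes that filter only through its exposed libraries, as control pool 2 had 4 counts, and nothing is drawn from this fit. Of the 2941 exon bases of Nab2, 42.2% are shared with genes on the opposite strand, Stat6, Gm16229 and Nemp1, and reads there were counted for no gene, which lowers the counts of Nab2. The other 8 genes share no exon base with another gene.

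**Figure D3:**
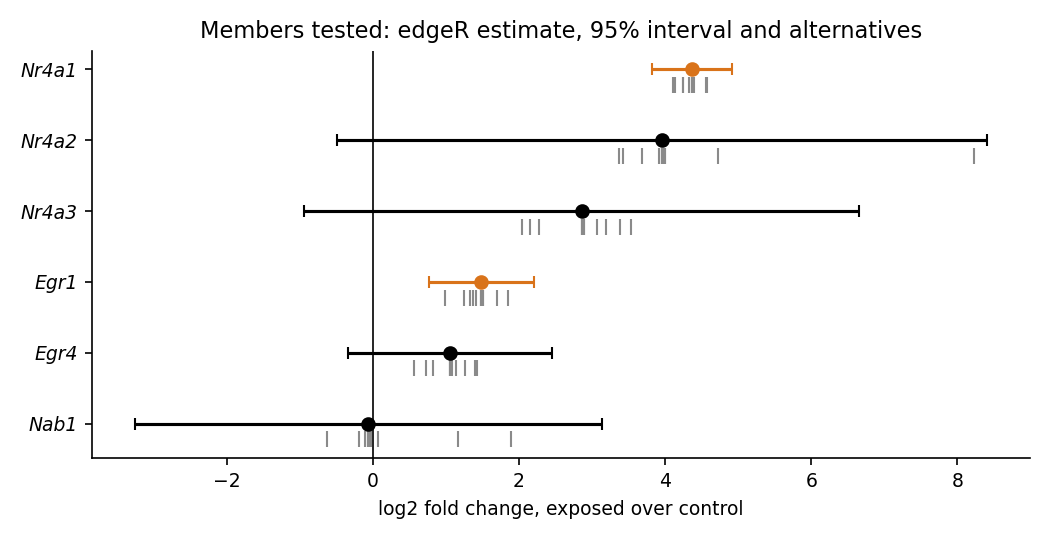
Log2 fold change of exposed over control libraries for the 6 genes tested (point, edgeR estimate; bar, 95% interval; orange, called upregulated). Grey ticks under each are the estimates under the alternative settings other than DESeq2. The interval of Nr4a1 (3.82 to 4.92) and that of Egr1 (0.77 to 2.20) lie above 0, while the other 4 include 0.

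To compare levels between genes, counts were divided by exon length and scaled to a sum of 1000000 in each library (TPM). In control libraries Egr1 was the most abundant of the 9 genes (102 ± 18.0 TPM, SD, n = 3) and Nr4a1 came next (73.1 ± 16.2 TPM, SD, n = 3), with overlapping libraries. Nab1 followed at 19.6 ± 20.1 TPM, and below Nr4a1 the libraries of each further neighbour in the order overlapped, down to Nab2 at 0.639 ± 0.685 TPM. Over the 1700 exon bases that Nab2 shares with no gene, its mean would be 1.11 TPM in control and 10.2 TPM in exposed libraries, which leaves its place in both orders as it is. In exposed libraries the order was led by Nr4a1 (1340 ± 232 TPM, SD, n = 2), then Egr1 (253 ± 95 TPM), Nr4a2 (134 ± 11.5 TPM) and Nab1 (17.2 ± 0.0354 TPM), and no library of one overlapped those of the next. Egr4, Nr4a3, Nab2, Egr2 and Egr3 followed with overlapping libraries. Among the 26883 genes with a count in any library, mean TPM placed Nr4a1 at the percentile 91.6 in control and 99.8 in exposed libraries, Egr1 at 93.8 and 98.0, and Nr4a2 at 70.4 and 96.0.

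Within the families 1 gene made up most of the transcripts. Nr4a1 was 93.4, 99.9 and 74.7% of the summed NR4A TPM in the controls (pools 1 to 3) and 91.8 and 87.8% in exposed pools 1 and 3. Egr1 was 94.9, 90.6 and 72.1% of the summed EGR TPM in the control pools and 94.7 and 90.4% in the exposed pools. Both shares were lowest in control pool 3, the library with the highest control counts of Nr4a2, Egr2 and Egr3. The summed NAB level was 42.1, 17.7 and 0.939 TPM in control and 25.7 and 20.5 TPM in exposed libraries, without separation of the conditions. Set against the summed EGR level, NAB transcripts came to 32.6, 17.6 and 0.743% in control and to 7.58 and 9.96% in exposed libraries, which also overlap.

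**Figure D4:**
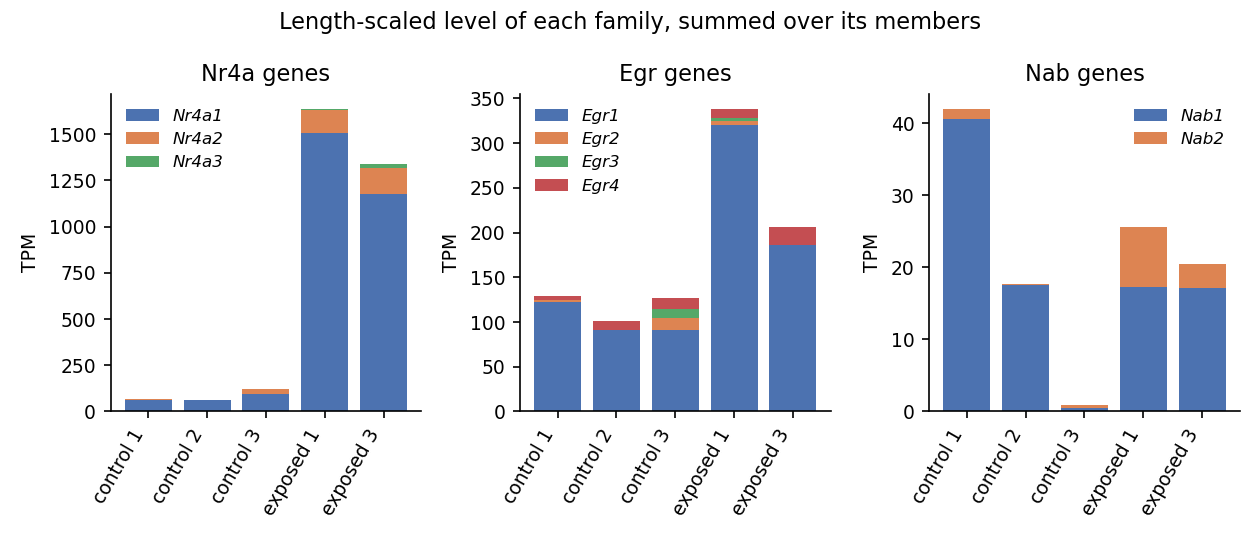
TPM of the NR4A, EGR and NAB genes in each library, stacked by gene, each panel with its own linear axis from 0. Nr4a1 makes up most of the NR4A bars (1639 and 1340 TPM in exposed pools 1 and 3, 63.4 to 123 TPM in control pools) and Egr1 most of the EGR bars, while the Nab bar of control pool 3 is only 0.939 TPM.

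The genes whose profile over the 5 libraries was most like that of Nr4a1, by the root mean square difference of centred log2 CPM, were Slc38a1 (0.29), Pcdh10 (0.33) and Tgfb2 (0.41), against a median of 2.19 over all genes tested. Slc38a1 encodes a glutamine transporter, Pcdh10 a protocadherin of neuronal membranes and Tgfb2 a secreted growth factor. Pcdh10 had 2642, 4293 and 3072 counts in the control pools and 64738 and 56090 in the exposed pools, with a log2 fold change of 4.32. Those most like Egr1 were Hpcal1 (0.19), a neuronal calcium sensor, Ldha (0.20), a lactate dehydrogenase subunit, and Adss (0.20), an enzyme of AMP synthesis, against a median of 0.87. As they were picked for a profile like that of an upregulated gene, their own increase follows from the choice.

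Other immediate early and activity-induced genes were followed with a list of 38. Of the 28 tested, 8 were called upregulated and 1 downregulated, where the shares over all genes were 3.42% and 1.85%, and 19 were not called. Their median log2 fold change was 1.16, against −0.026 over all genes tested. Both exposed libraries were above the controls for 18 genes and below for 3, against 20.3% and 19.6% of all genes. Of these 28 genes, 8 passed the filter only through the exposed libraries, among them the called genes Vgf, Sik1 and Fosl2, and for 7 of the 8 both exposed libraries were above the controls. The counts and the median are therefore descriptions and no support. The median of the other 20 genes was 0.66. The upregulated genes were Vgf, which encodes a neuropeptide precursor (log2 fold change 7.92, adjusted p = 0.056), Sik1, a kinase that restrains CREB coactivators (3.57, adjusted p = 0.0267), the AP-1 subunit gene Fosl2 (2.99, adjusted p = 0.0444), the clock gene Per1 (2.31, adjusted p = 0.0168), Csrnp1 (1.68), Junb (1.65), Klf10 (1.6) and Klf6 (0.81).

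Sik1 had 356, 347 and 120 counts in the control pools and 3984 and 1992 in the exposed pools, and Vgf had 0, 13 and 0 against 1442 and 476. Both were low or near 0 in all control libraries, and the fitted fold change of Vgf depends on how so few control counts are treated. On the log2 scale that change was 0.073 with DESeq2, where it was not called, and 12.9 without control pool 2. Ier5 was called downregulated (log2 fold change −2.60, adjusted p = 0.0984), with 1867, 1603 and 1006 counts in control and 97 and 351 in exposed libraries. Of the 15 alternatives, 12 also called Sik1 and Per1, 8 called Fosl2, 7 called Vgf, Csrnp1, Junb and Klf10, 4 called Ier5 and 3 called Klf6. The call of Ier5 was lost without control pool 1 (adjusted p = 0.168), control pool 2 (0.215) or exposed pool 1 (0.31). Its log2 fold changes in these fits were −2.35, −2.60 and −1.95, in that order. Ier2 was the most abundant gene of the list and had a log2 fold change of 0.39 (adjusted p = 0.286). Fos, the commonest activity marker, had 13786, 14510 and 10724 counts in the control pools and 27751 and 16818 in the exposed pools. Its exposed libraries were both higher, but the log2 fold change of 0.90 (SE 0.23) was not called (adjusted p = 0.109). Of the 15 alternatives 2 called Fos: DESeq2 (log2 fold change 0.80, adjusted p = 0.00831) and edgeR without exposed pool 3 (1.2, adjusted p = 0.0818). Without exposed pool 1 its log2 fold change was 0.52 (adjusted p = 0.532). Arc, which had 307, 73 and 1319 counts in control and 462 and 72 in exposed libraries, and Npas4, with at most 69 counts in any library, did not pass the filter. Jund, which encodes an AP-1 subunit, had 3247, 4148 and 931 counts in control and 99 and 348 in exposed libraries. Its log2 fold change of −3.49 (SE 0.86) was not called by edgeR (adjusted p = 0.109). With DESeq2 13 genes of this list were called upregulated and 2, Jund and Ier5, downregulated, against 671 and 715 of all 10054 genes tested. Without exposed pool 1 edgeR called none of the list upregulated, with 11 at an unadjusted p under 0.05.

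**Figure D5:**
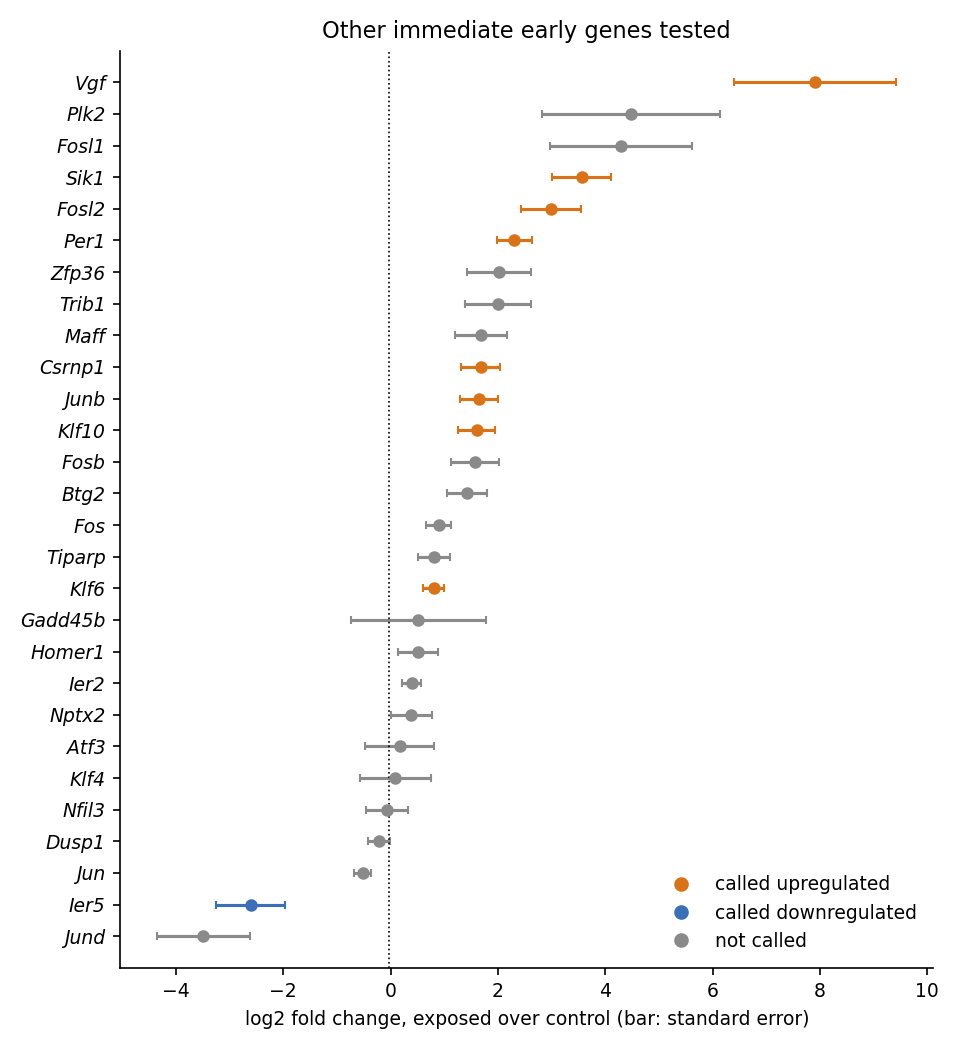
Log2 fold change (point) with its standard error (bar) of the 28 immediate early and activity-induced genes tested, sorted by size. Orange marks the 8 genes called upregulated, blue the 1 called downregulated and grey the 19 not called, and the dotted line is the median of all genes tested (−0.026).

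Of 20 genes for regulators that act upstream of Egr and Nr4a genes (CREB and its coactivators, serum response factor with its ETS and MRTF partners, MEF2 factors and class IIa histone deacetylases), 17 were tested, and edgeR called Hdac5 upregulated and 0 downregulated, against 3.42% and 1.85% of all genes, with 2 lower at an unadjusted p under 0.05. DESeq2 called Hdac5 upregulated and Mef2b and Srf downregulated, against 671 and 715 of all 10054 genes tested. Hdac5, a deacetylase that holds MEF2 targets silent and leaves the nucleus upon calcium signalling, had 4145, 4318 and 3651 counts in the control pools and 10510 and 8738 in the exposed pools. Its log2 fold change was 1.38 (SE 0.17, adjusted p = 0.0102). It was called in 12 of the 15 alternatives, and not with ERCC scaling (log2 fold change 1.16, adjusted p = 0.9996) or without exposed pool 1 (1.26, adjusted p = 0.128). Creb1 was at 101 ± 10.4 CPM (SD, n = 3) and 104 ± 16.9 CPM (SD, n = 2), with a log2 fold change of 0.05. Srf had a log2 fold change of −1.71 and both exposed libraries below the controls, but was not called by edgeR (adjusted p = 0.172). Mef2b was the most abundant gene of the list (edgeR log2 fold change −0.65, adjusted p = 0.146), and the median of the list was −8.54e-05.

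Next came 10 genes for partners of the EGR, NR4A and NAB proteins. They include retinoid X receptors and subunits of the chromatin remodelling complex that NAB proteins recruit. Of these 10 genes, 8 were tested. None was called by edgeR, against 3.42% up and 1.85% down over all genes, while 1 had an unadjusted p under 0.05. DESeq2 called Rxrb downregulated, against 715 of all 10054 genes tested. The median log2 fold change of the 8 genes was −0.23. Hdac2, the most abundant, had a log2 fold change of −0.31 (adjusted p = 0.456), and Rxrb, a dimer partner of NR4A receptors, of −0.89 (adjusted p = 0.205 in edgeR).

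Of 8 genes known as EGR targets in other cells, a list that holds Egr1 and Nab2 themselves, 4 were tested, and Syn1 and Egr1 were called upregulated, against 3.42% of all genes. Syn1, which encodes the synaptic vesicle protein synapsin I, had 4555, 6213 and 7029 counts in the control pools and 16387 and 20539 in the exposed pools, with a log2 fold change of 1.78 (SE 0.20, adjusted p = 0.00913). It was called in 13 of the 15 alternatives, and not with ERCC scaling (log2 fold change 1.57, adjusted p = 0.594). The median of the 4 genes was 0.26. Syn2 was uneven among the controls, with 11466, 11049 and 1657 counts against 2166 and 1731, and was not called (log2 fold change −1.92, adjusted p = 0.26). Fasl had 0 counts in all 5 libraries.

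Of 8 genes known as NR4A targets elsewhere, Th, Slc6a3 and Vip had 0 counts in all 5 libraries, and Ddc and Ret at most 5 in any. Only Pomc was tested, with 435, 274 and 297 counts in control and 463 and 617 in exposed libraries, and its log2 fold change of 0.80 was not called (adjusted p = 0.379). Slc18a2 had 89, 90 and 74 counts in the control pools and 116 and 205 in the exposed pools. The edgeR and DESeq2 calls for this list were therefore 0, as was the count at an unadjusted p under 0.05.

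Tissue dissociation can itself induce early genes, and heat shock genes were measured for this reason. Of 6 genes, 5 were tested, with a median log2 fold change of 0.22. Hsph1 was called upregulated (1.52, adjusted p = 0.0949), where 3.42% of all genes were, and 4 of the 15 alternatives called it as well. It had 2097, 5800 and 3058 counts in control and 9077 and 9633 in exposed libraries. Dnajb1, the most abundant, was not called (0.22, adjusted p = 0.645), and neither were Hspa1a, Hspa1b and Hspa8. All pools passed through the same dissociation, and its part in the result was not tested.

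Markers of other cells were read in the same libraries, since any cell in the sort could carry Egr or Nr4a transcripts. Of 12 myeloid markers 4 were tested, 3 of them only through the exposed libraries, and Fcer1g was called upregulated (log2 fold change 2.63, adjusted p = 0.0807), where 3.42% of all genes were. Fcer1g was called in 6 of the 15 alternatives, and not without control pool 2 (adjusted p = 0.211), exposed pool 1 (0.31) or exposed pool 3 (0.207). Its log2 fold changes in these fits were 2.43, 2.71 and 2.54, in that order. The 3 genes that passed only through the exposed libraries, Fcer1g, Ptprc and Tyrobp, had both exposed libraries above the controls, which the filter itself favours. DESeq2 called Fcer1g and Ptprc upregulated, against 671 of all 10054 genes tested. The other 9 markers overlapped between the conditions, and C1qb, a complement gene of macrophages, had 602, 76 and 0 counts in the control pools and 71 and 19 in the exposed pools. Tyrobp had 538, 123 and 67 counts in the control pools and 1026 and 797 in the exposed pools. The defining marker Ptprc had 0, 54 and 1 counts in the control pools and 542 and 517 in the exposed pools, and was not called by edgeR (adjusted p = 0.191). The summed level of the 12 genes was 372, 67.9 and 48.2 TPM in control and 355 and 200 TPM in exposed libraries, with Lyz2 the most abundant. The part of myeloid cells in the result was not tested.

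Control pool 3, in which Nr4a2, Egr2, Egr3 and Arc were highest among the controls and Nab1 lowest, also had 2476 counts of the fibroblast gene Col1a1 and 1238 of the microvillar cell gene Trpm5. Over the other 4 libraries Col1a1 had at most 124 counts and Trpm5 at most 183. The 3 fibroblast markers summed to 3.56, 5.04 and 30.3 TPM in control and 6.17 and 1.93 TPM in exposed libraries, led by Col1a1. The 3 microvillar markers summed to 0.0347, 30.4 and 14.5 TPM in control and 3.86 and 4.58 TPM in exposed libraries, led by Ascl3, which had 0 counts in control pools 1 and 3. None of these 6 markers passed the filter. Their part in the high values of that pool was not tested. Without control pool 3 Nr4a1 and Egr1 were still called, with log2 fold changes of 4.57 and 1.41.

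The 4 erythroid genes, led by Hbb-bs, summed to 1448, 506 and 56.5 TPM in control and 60.6 and 26.5 TPM in exposed libraries, and the 1 tested was not called. The 5 sustentacular markers, led by Sec14l3, summed to 223, 190 and 95.9 TPM in control and 271 and 99.3 TPM in exposed libraries, and none of the 3 tested was called by edgeR or DESeq2 or had an unadjusted p under 0.05. For endothelial cells Cdh5 and Kdr had 0 counts in all 5 libraries and Pecam1 was not called, with a sum of 1.71 to 4.00 TPM. Globose basal markers, led by Neurod1, summed to at most 8.66 TPM, horizontal basal markers, led by Krt5, to at most 2.98 TPM and olfactory ensheathing glia markers, led by Fabp7, to at most 5.34 TPM, and none of these was tested. Sox10 had 0 counts in both exposed libraries.

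Markers of OSN maturity were read in the same way. Of 9 mature OSN markers, all tested, edgeR called 4 downregulated, against 1.85% of all genes, and left 5 uncalled. Their median log2 fold change was −0.53, and DESeq2 called 3 of them downregulated, without Cnga4, against 715 of all 10054 genes tested. The 4 called by edgeR were Rtp1, a chaperone of odorant receptors (−1.07, adjusted p = 0.00988), and the channel subunit genes Cngb1 (−0.91), Cnga2 (−0.83) and Cnga4 (−0.53) of the transduction cascade. The paper reports that most main genes of this cascade, among which it names Cnga2 and Cnga4, fell after odorant activation. The call of Cnga4 held in 3 of the 15 alternatives, that of Cngb1 in 8, that of Cnga2 in 10 and that of Rtp1 in 12. Cngb1 was not called without control pool 2 (adjusted p = 0.143), exposed pool 1 (0.331) or exposed pool 3 (0.119), and Cnga2 was not called without exposed pool 1 (0.114) or exposed pool 3 (0.12). Rtp1 was not called without exposed pool 1 (0.128). The log2 fold changes in these fits were −0.83, −0.76 and −1.06 for Cngb1, −0.94 and −0.73 for Cnga2, and −0.98 for Rtp1. The summed level of the 9 genes, led by Stoml3, was 68360, 77907 and 72761 TPM in control and 56131 and 56106 TPM in exposed libraries. Of 4 immature OSN markers, all tested, Gap43, a growth cone protein, was called upregulated (0.94, adjusted p = 0.0891), against 3.42% of all genes. It was also called in 4 of the 15 alternatives. Gng8 and Stmn1 also had both exposed libraries above the controls, while Dpysl5 had both below (log2 fold change −0.69, adjusted p = 0.112) and was called downregulated by DESeq2. DESeq2 called Gap43 and Stmn1 upregulated, and its calls over all 10054 genes were 671 up and 715 down. The 4 genes, led by Gap43, summed to 352, 320 and 400 TPM in control and 580 and 476 TPM in exposed libraries. Both sums therefore separated the conditions in the same libraries in which Nr4a1 and Egr1 did, and their part in the result was not tested.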

How the data were processed

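RNA of GFP-sorted Olfr151 neurons was reverse transcribed and amplified with the SMARTer kit, and reads of 50 bases were sequenced. The authors mapped reads with STAR (2.7.0a in the submitters' processing notes) to GRCm38 with the reporter sequence added, and deposited raw counts per gene made with featureCounts 1.6.3, 1 table per pool. Counts summed to 42780403 to 49527380 per library, of which ERCC spike-ins took 0.249 to 0.631%. Identifiers were paired with symbols through GENCODE M21 for 55144 of 55411 genes. Reads in exons of several genes were not counted.

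Spike-in and reporter rows were left out of library sizes. The test was that of edgeR 4.0.16 under R 4.3.3 (glmQLFit with robust estimation and glmQLFTest after TMM scaling), on all 5 libraries with condition as the only factor, and p-values were adjusted by Benjamini-Hochberg over the 10054 genes tested. The minimum of 140 counts was taken where the distribution of log2 counts has its local minimum. DESeq2 1.42.0 with apeglm 1.24.0 was an alternative, as were other scalings, filters and thresholds, the pool number as a block and the omission of each library. Permutation tests used scipy 1.17.1. p-values measure the spread between pools of mice, of which there are few. The procedure was tested on simulated data, and as the outcome is not given here, nothing is drawn from it. Exposed pool 2 was not analysed here.

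The members, gene lists and marker lists were chosen with earlier results of these data known. Named are all members, the 3 genes most like each called member, and in each list the called genes with the largest changes and the most abundant gene. Genes outside this rule (Fos, Jund, Arc, Npas4, Creb1, Srf, Syn2, Rxrb, Hspa1a, Hspa1b, Hspa8, the smaller calls among early genes and single marker or target genes) were chosen after their values were seen.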

Additional observations from a re-analysis of the deposited data

How the results depend on the processing

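In the 15 alternatives Nr4a1 kept its direction, with log2 fold changes of 4.11 to 4.57, and was called in 14 of them. Egr1 kept its direction (0.99 to 1.86) and was called in 8, its adjusted p ranging from 0.000123 to 0.998; it was not called with ERCC scaling (1.25), edgeR's filterByExpr, an adjusted p under 0.05, glmTreat, the block, or without control pool 2 or exposed pool 1. Nr4a2 had no adjusted p in DESeq2 and shrank there to 0.091, as did Nr4a3 to 0.066. Nab1 turned positive with ERCC scaling (0.068), with the block (1.90) and without control pool 1 (1.17), and was at −0.62 without control pool 3. Upregulated and downregulated genes numbered 344 and 186, and 94 and 49 with ERCC scaling, 163 and 77 with filterByExpr, 190 and 90 at an adjusted p under 0.05, 147 and 55 with glmTreat, and 671 and 715 with DESeq2. Leaving out 1 library at a time they ranged from 71 to 347 (fewest without exposed pool 1) and from 19 to 409 (most without control pool 3). Of the calls 64.9% were upregulated, against 48.4% with DESeq2, 45.9% without control pool 3, 54.3% without exposed pool 3 and 78.9% without exposed pool 1. Members called upregulated fell from 2 to 1 with filterByExpr, an adjusted p under 0.05 or glmTreat, and ranged from 1 to 3 when libraries were left out. Immediate early genes called upregulated numbered 4 with ERCC scaling or glmTreat, 5 without a filter, 2 with filterByExpr, 3 at an adjusted p under 0.05, 13 with DESeq2, and 0 to 9 when libraries were left out. ERCC scaling moved the median change over all genes, on the log2 scale, by −0.21 and the absence of a filter by −0.12. With the block, Hdac5 (log2 fold change 1.38, adjusted p = 0.144) and Syn1 (1.78, adjusted p = 0.127) were not called. The cause of these differences was not tested. The higher mean level was in exposed libraries for 6 members, and for 6 to 8 when libraries were left out.

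Only pool numbers 1 and 3 are shared by both conditions. The protocol mentions 3 days, but no label says that a number marks a day. Deviations from the condition means correlated at 0.028 for pools 1 and −0.072 for pools 3. With 2 exposed libraries the deviations of 1 mirror those of the other. This check therefore cannot show whether pools are paired, and nothing is drawn from it. With the pool number as a replicate block 11 genes were called upregulated and 0 downregulated, and 0 members and 0 immediate early genes were called upregulated, on fewer residual degrees of freedom; the log2 fold changes were 4.24 for Nr4a1 (adjusted p = 0.127) and 1.34 for Egr1 (adjusted p = 0.152). At an unadjusted p under 0.05 and a log2 change beyond 0.5 the block left 3 members and 12 immediate early genes higher and 536 of all genes lower, and the fit without it 2, 17 and 941. Egr2, Egr3 and Nab2 were under the filter in libraries of similar depth, and their counts varied widely between pools of 1 condition.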
